A study of Homo sapiens with 14 samples.

Results

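Transcript levels of 10 tetraspanin genes, CD82 and 9 relatives, were compared across 14 RNA-seq libraries made in bulk from human cancer lines. The genes are CD9, CD63, CD81, CD82, CD151, TSPAN1, TSPAN4, TSPAN8, TSPAN13 and TSPAN14, matched by symbol among the 62699 genes of the deposited count table, out of 33 tetraspanin genes listed there. They were chosen by their own measured values: the level in each line, and the ratio of each ADAR siRNA library to the control siRNA library of its line. Those ratios are therefore given as a description, with no test.

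The study asks what ADAR, the enzyme that converts adenosine to inosine in double-stranded RNA, and NOP14, a nucleolar protein of small ribosomal subunit assembly, do to the transcriptome of cancer cells. ADAR was silenced by siRNA in 4 lines: MDA-MB-231 and BT-549 (both labelled triple-negative breast cancer), NCI-H1395 (labelled lung adenocarcinoma) and AGS (labelled gastric cancer). Each line has 1 library with control siRNA and 2 with ADAR siRNA, called library 1 and library 2 here after the labels' replicate numbers. MDA-MB-231 has 2 further libraries, 1 overexpressing NOP14 and 1 labelled PCDH, which serves as its control. The labels do not say whether the paired ADAR siRNA libraries came from separate cultures or from different siRNAs, so their spread may be technical.

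Tetraspanins are small proteins that pass repeatedly through the membrane and gather integrins, immunoglobulin superfamily proteins, sheddases and growth factor receptors into patches of the cell surface. Some of them also mark vesicles that cells release. CD82, also called KAI1, is known as a metastasis suppressor whose loss accompanies progression in several carcinomas, and CD9 and CD151 are known for effects on cell motility through integrins.

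The libraries held 13338338 to 27828376 counts. ADAR stood at 10.7% to 33.3% of its control level, and highest in MDA-MB-231 (31.7% and 33.3%). NOP14 stood at 856 CPM (counts scaled to library size with TMM factors) in the overexpressing library against 130 in PCDH. In the control siRNA library of the same line NOP14 stood at 351 CPM. The labelled origin was checked with marker genes. NCI-H1395 had all 4 lung epithelial markers under 1 CPM in every library, 3 of 6 epithelial markers (CDH1, EPCAM and KRT19) also under 1 CPM, and all 5 mesenchymal markers at 1 CPM or more. The epithelial keratins KRT18 and KRT8 stood at 383 to 589 CPM and 168 to 234 CPM there, and ESRP1 at 0.647 to 1.12 CPM. AGS had all 6 epithelial markers at 1 CPM or more but 4 of 5 gastric markers under it, and BT-549 had 4 of 6 epithelial markers under 1 CPM. In MDA-MB-231, 4 of 6 epithelial and 3 of 5 gastric markers were at 1 CPM or more in every library. The gastric markers summed to 9.41 to 15.1 CPM there, above the 1.59 to 2.80 CPM of AGS. Of the mesenchymal markers, 4 of 5 were at 1 CPM or more in every library of MDA-MB-231 and of BT-549. In AGS 3 of 5 were, at a sum of 5.94 to 12.8 CPM, and 3 of 4 lung markers were under 1 CPM. In bulk RNA, fewer cells of a type and less RNA per cell cannot be told apart.

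On hg38 the count table places CD82, CD81, CD151 and TSPAN4 on chromosome 11, with CD151 at chr11:832887-839831 (plus strand), TSPAN4 at chr11:842812-867116 (plus strand), CD81 at chr11:2376177-2397802 (plus strand) and CD82 at chr11:44564427-44620358 (plus strand). Chromosome 12 carries CD9 at chr12:6199715-6238271 (plus strand), CD63 at chr12:55725323-55729707 (minus strand) and TSPAN8 at chr12:71125085-71441898 (minus strand). The others are TSPAN1 at chr1:46175073-46185962 (plus strand), TSPAN13 at chr7:16753755-16784536 (plus strand) and TSPAN14 at chr10:80454265-80533124 (plus strand). CD82, TSPAN13 and TSPAN8 had the widest ranges between lines, and the RefSeq sequence (GRCh38.p14) upstream of a start of each is shown to set a CG-rich and a CG-poor upstream region side by side. Of the 10 genes, 8 were found in the RefSeq promoter table, with 25 annotated starts. The stretches below run 5′ to 3′ on the gene's strand, leave out any base that the count table assigns to an exon of the gene, and carry CG dinucleotides in capitals. CD82 is shown for chr11:44565413-44565600 (plus strand), TSPAN13 for chr7:16753505-16753754 (plus strand) and TSPAN8 for chr12:71158000-71158249 (minus strand, the more upstream of its 2 RefSeq starts). The counted CD82 gene begins further upstream, at chr11:44564427, and the counted TSPAN8 gene at chr12:71441898. The CD82 and TSPAN8 stretches thus lie inside the counted genes, and the sequence before those earlier ends was not examined.
CD82: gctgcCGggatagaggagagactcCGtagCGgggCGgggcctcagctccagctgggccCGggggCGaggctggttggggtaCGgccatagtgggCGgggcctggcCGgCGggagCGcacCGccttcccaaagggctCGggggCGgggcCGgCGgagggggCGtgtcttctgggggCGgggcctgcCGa
TSPAN13: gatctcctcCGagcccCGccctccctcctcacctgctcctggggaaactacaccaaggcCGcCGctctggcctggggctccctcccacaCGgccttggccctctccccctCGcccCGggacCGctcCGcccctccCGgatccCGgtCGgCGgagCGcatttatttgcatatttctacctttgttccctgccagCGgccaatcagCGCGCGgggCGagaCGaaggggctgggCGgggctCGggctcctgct
TSPAN8: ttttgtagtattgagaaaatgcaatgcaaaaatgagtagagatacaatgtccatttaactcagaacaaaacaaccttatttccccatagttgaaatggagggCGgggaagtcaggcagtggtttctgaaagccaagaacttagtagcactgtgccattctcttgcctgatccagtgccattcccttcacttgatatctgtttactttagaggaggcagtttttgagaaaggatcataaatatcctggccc
The CD82 stretch holds 19 CG dinucleotides in 188 bases, and the whole 250-base window before its start holds 26. TSPAN13 holds 22 and TSPAN8 holds 1. Over 35116 windows of the same length the median was 11, with quartiles of 3 and 23. TSPAN1, also highest in AGS, had 4 CG dinucleotides before its only start. Among the broadly expressed genes, CD9, CD63, TSPAN4 and TSPAN14 each had at least 1 start with 29 or more. The motif GGGCGG, searched on both strands, lay in all 3 windows shown and in 42.6% of all windows; a match is a description of letters only.

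CD82 lay below its control in both ADAR siRNA libraries of 3 lines and not in those of MDA-MB-231. Its level with control siRNA was 128 CPM in NCI-H1395, 55.0 CPM in MDA-MB-231, 49.1 CPM in BT-549 and 7.49 CPM in AGS, a 17.1-fold range. After ADAR silencing CD82 lay at 56.6 CPM in library 1 and 69.2 CPM in library 2 of MDA-MB-231. In BT-549 it lay at 15.9 and 34.5 CPM. In NCI-H1395 the values were 40.3 and 95.7 CPM, and in AGS they were 1.70 and 5.33 CPM, from 31 and 99 counts. Every library 1 was the lowest of its line except in MDA-MB-231, where the control was lowest. Over the 3 siRNA libraries of each line, the ranges of NCI-H1395 and MDA-MB-231 overlapped, all of BT-549 lay below MDA-MB-231, and all of AGS lay below BT-549.

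How far CD82 lay below control differed between the paired libraries. Library 1 held 32.4% of the control level in BT-549 (95% exact counting interval 28.2 to 37.0), 31.4% in NCI-H1395 (29.1 to 33.9) and 22.7% in AGS (14.8 to 33.8). Library 2 held 70.3% (63.9 to 77.3), 74.7% (70.1 to 79.6) and 71.2% (54.3 to 93.2) in the same lines. In MDA-MB-231 CD82 stood at 103% (93.7 to 113) and 126% (115 to 137). These intervals cover counting error only, and those of the paired libraries did not overlap in any of the 4 lines. The mean log2 ratio was -1.06 ± 0.79 (SD, n = 2) in BT-549, -1.04 ± 0.88 in NCI-H1395, -1.28 ± 1.12 in AGS and 0.19 ± 0.21 in MDA-MB-231.

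ADAR differed less than CD82 between the paired libraries of BT-549, NCI-H1395 and AGS. It stood at 13.0% and 11.5% of control in libraries 1 and 2 of BT-549, at 10.7% and 11.5% in NCI-H1395 and at 17.1% and 23.6% in AGS. Library 2 over library 1 was thus 0.88, 1.08 and 1.38-fold for ADAR, and 2.17, 2.38 and 3.13-fold for CD82. Like CD82, ADAR was lower in library 1 of NCI-H1395 and AGS, but not of BT-549. Whether the depth of silencing bears on CD82 was not tested. CD82 was the only one of the 10 with library 2 at least 1.5-fold above library 1 in all 3 of these lines, which held for 2.02% of the 15338 genes averaging at least 1 CPM over the siRNA libraries. It was also the only one at least 1.5-fold below control in library 1 of all 3 lines (0.606% of genes). Lower in all 6 of these libraries and higher in both of MDA-MB-231 was again CD82 alone (1.3% of genes). CD82 was chosen on these values, and nothing is read from the shares.

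**Figure D1:**
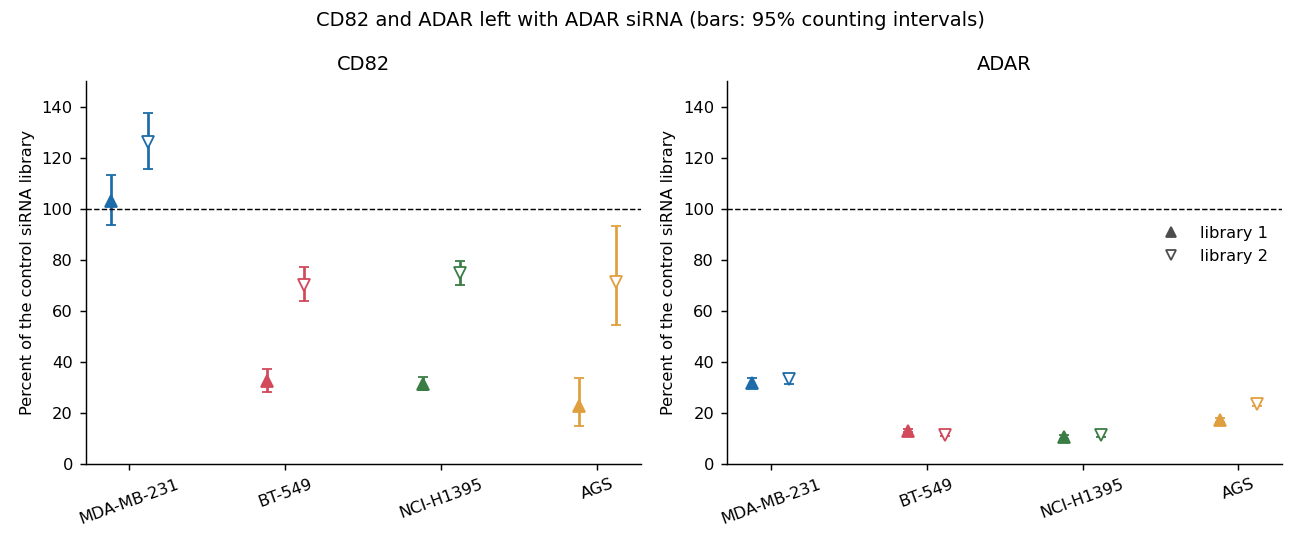
Percent of the control siRNA level (vertical axis) of CD82 (left) and ADAR (right) in the 8 ADAR siRNA libraries, by line; filled upward triangles are library 1, open downward triangles library 2, and bars are 95% exact counting intervals. CD82 lies between 22.7% and 74.7% in BT-549, NCI-H1395 and AGS and at 103% and 126% in MDA-MB-231, while ADAR lies at or below 33.3% throughout.

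The CD82 antisense gene CD82-AS1 shares 280 bases with CD82 exons (6.93% of them) on the opposite strand, and the sources used here do not give whether counting used strand. CD82-AS1 reached at most 0.312 CPM in any library. CD151 shares 257 exon bases with POLR2L, an RNA polymerase subunit gene that reached 169 CPM, and CD63 shares 120 with CD63-AS1, which reached 12.2 CPM, so part of their counts cannot be assigned with certainty.

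Among the genes known from vesicles and the general cell surface, CD63 was the most abundant. CD63 marks late endosomes, lysosomes and exosomes. Its level per length (TPM, from counts divided by the table's merged exon lengths) ranked first of the 10 in every library, at 48.9% of their summed TPM in the MDA-MB-231 control, 59.9% in that of BT-549, 48.5% for NCI-H1395 and 33.8% for AGS. Its control level varied only 1.46-fold over the lines, from 278 CPM in MDA-MB-231 to 408 CPM in AGS. The ADAR siRNA libraries held 237 and 320 CPM in MDA-MB-231, 340 and 321 CPM in BT-549, 415 and 401 CPM in NCI-H1395 and 269 and 379 CPM in AGS. The libraries thus lay on both sides of the controls, 5 lower and 3 higher, and AGS, BT-549 and NCI-H1395 overlapped as neighbours in the order of control levels.

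CD9, a tetraspanin of cell fusion and adhesion, lay below control in 7 of 8 libraries. Its control level was 136 CPM in MDA-MB-231, 118 CPM in BT-549, 188 CPM in NCI-H1395 and 429 CPM in AGS. Its ADAR siRNA libraries held 87.0 and 107 CPM in MDA-MB-231, 122 and 99.1 CPM in BT-549, and 135 and 176 CPM in NCI-H1395. In AGS it lay at 279 and 281 CPM, which is 65.0% and 65.6% of control. AGS was thus the line with the closest pair, and all 3 of its libraries lay above every siRNA library of the other lines.

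CD81, a partner of EWI proteins at the surface, showed no common side. Its control level ran from 92.0 CPM in MDA-MB-231 through 99.2 CPM in BT-549 and 129 CPM in NCI-H1395 to 204 CPM in AGS. Libraries 1 and 2 held 68.1 and 88.9 CPM in MDA-MB-231 and 114 and 125 CPM in BT-549. In NCI-H1395 it lay at 110 and 136 CPM, and in AGS at 145 and 213 CPM. It was lower in 4 libraries and higher in the other 4, with both above control in BT-549 and both below it in MDA-MB-231. Over the siRNA libraries the range of AGS lay above the rest, NCI-H1395 and BT-549 overlapped, and MDA-MB-231 lay below BT-549. That order does not hold for the NOP14 and PCDH libraries of MDA-MB-231, which held 165 and 162 CPM of CD81.

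CD151 binds laminin-binding integrins. It stood at 193 CPM in the control of MDA-MB-231 with 126 and 169 CPM after ADAR siRNA, and at 132 CPM in BT-549 with 141 and 117 CPM. In NCI-H1395 its 3 siRNA libraries lay together, at 215 CPM with control siRNA and at 215 and 217 CPM with ADAR siRNA. In AGS it stood at 249 CPM against 152 and 233 CPM. TSPAN4, which is known from migrasomes, the vesicles left on retraction fibres, had control levels of 61.4, 121, 127 and 63.2 CPM in MDA-MB-231, BT-549, NCI-H1395 and AGS. With ADAR siRNA TSPAN4 lay at 48.6 and 58.7 CPM, 118 and 80.3 CPM, 143 and 137 CPM, and 38.2 and 54.8 CPM in the same order of lines. Both genes were lower in 6 of 8 libraries. For TSPAN4, over the siRNA libraries, all of NCI-H1395 lay above BT-549 and all of BT-549 above AGS, which overlapped MDA-MB-231. The NOP14 and PCDH libraries of MDA-MB-231 held more TSPAN4, at 102 and 101 CPM, within the range of BT-549.

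TSPAN14, which helps the sheddase ADAM10 leave the endoplasmic reticulum, split the lines into a higher and a lower pair. Its control level was 126 CPM in AGS and 112 CPM in MDA-MB-231, against 43.0 CPM in NCI-H1395 and 41.4 CPM in BT-549. After silencing it lay at 122 and 141 CPM in AGS, 86.3 and 89.5 CPM in MDA-MB-231, 38.5 and 29.1 CPM in NCI-H1395 and 39.0 and 37.3 CPM in BT-549. Over the siRNA libraries the lower pair of lines overlapped each other, and the higher pair did not. The NOP14 and PCDH libraries of MDA-MB-231, at 127 and 124 CPM, lay within the range of AGS.

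**Figure D2:**
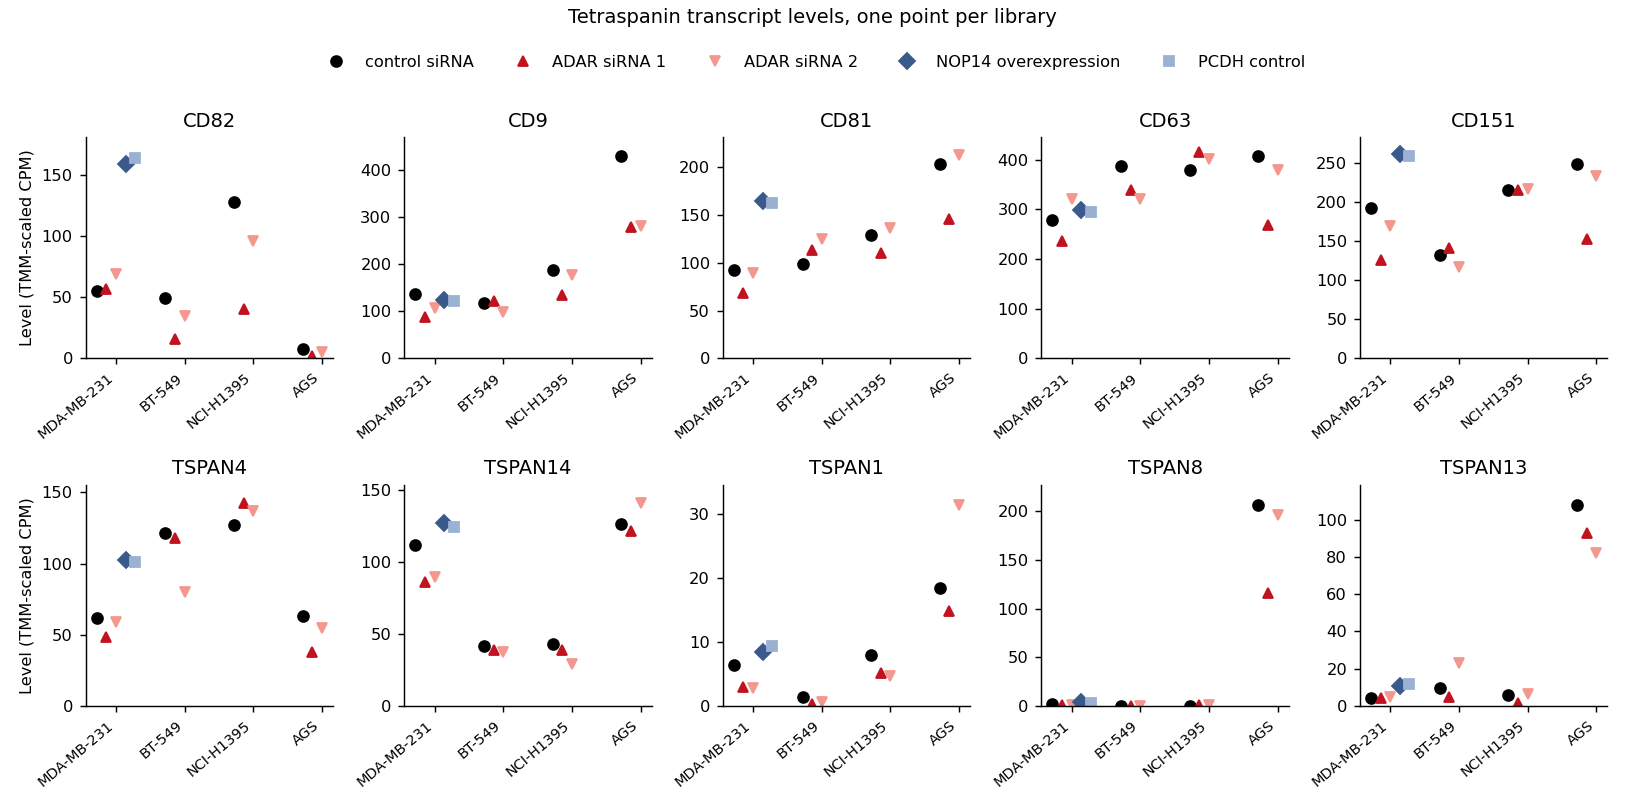
Levels of the 10 tetraspanin genes (vertical axes, TMM-scaled CPM, each from 0) by line, 1 point per library: black circles control siRNA, dark and light red triangles ADAR siRNA libraries 1 and 2, blue diamond and pale square the NOP14 and PCDH libraries. TSPAN8 and TSPAN13 stand out in AGS, at 206 and 108 CPM in its control, where CD82 is lowest at 7.49 CPM.

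TSPAN8, TSPAN13 and TSPAN1 were highest in AGS. TSPAN8, a tetraspanin known from epithelial cells of the digestive tract, stood at 206 CPM in the AGS control and at 116 and 197 CPM after silencing. MDA-MB-231 had 1.74 CPM against 0.761 and 0.875 CPM, from 31, 11 and 14 counts. NCI-H1395 had 0.216 CPM against 0.955 and 0.352 CPM, from 4, 22 and 6 counts. BT-549 had 0 counts in all 3 siRNA libraries. The AGS control was 119-fold above that of MDA-MB-231, and per length TSPAN8 ranked behind CD63 alone in AGS. The ranges of MDA-MB-231 and NCI-H1395 overlapped.

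TSPAN13 stood at 108 CPM in the AGS control, 9.54 CPM in BT-549, 5.77 CPM in NCI-H1395 and 4.37 CPM in MDA-MB-231, a 24.7-fold range. With ADAR siRNA it lay at 93.2 and 82.3 CPM in AGS and at 4.29 and 4.87 CPM in MDA-MB-231. In BT-549 it lay at 4.58 CPM in library 1 and 23.0 CPM in library 2, and in NCI-H1395 at 1.69 and 6.28 CPM. Library 2 was thus 5.02-fold above library 1 in BT-549 and 3.71-fold in NCI-H1395, with both pairs on opposite sides of control. AGS lay above every other line, and the other 3 overlapped as neighbours.

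TSPAN1, an epithelial tetraspanin, had control levels of 18.5 CPM in AGS, 7.93 CPM in NCI-H1395, 6.33 CPM in MDA-MB-231 and 1.45 CPM in BT-549. With ADAR siRNA it lay at 2.91 and 2.81 CPM in MDA-MB-231, which is 45.9% and 44.4% of control. It lay at 0.343 and 0.582 CPM in BT-549, from 6 and 13 counts against 29, and at 5.08 and 4.64 CPM in NCI-H1395 (64.0% and 58.5%). In AGS the libraries parted, at 14.8 and 31.4 CPM. TSPAN1 was therefore below control in 7 of 8 libraries, by at least 1.5-fold in both libraries of 3 lines with TMM scaling.

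Read by the 1.5-fold mark in both libraries of a line, TSPAN1 and TSPAN8 were lower in MDA-MB-231, where 5.89% of genes met it. TSPAN8 did so there from 31 control counts against 11 and 14. TSPAN1 alone met it in BT-549 (2.47%) and in NCI-H1395 (3.9%), and CD9 alone met it in AGS (3.66%). On the log2 scale with a prior count of 2 none of the 10 was at least 1.5-fold higher in both libraries of any line, against 6.2% of genes in MDA-MB-231, 4.09% for BT-549, 6.56% for NCI-H1395 and 6.07% for AGS. All 10 passed the minimum of 1 CPM on average, TSPAN8 by its level in AGS. Without the prior count TSPAN8 in NCI-H1395 stood at 443% and 163% of control, from 4 control counts, and with a prior count of 0.5 or with library totals it passed the mark. With library totals CD9 in AGS (log2 ratios -0.52 and -0.46) and TSPAN1 in NCI-H1395 (-0.56 and -0.63) no longer met the mark, and with median-ratio scaling CD9 in AGS (-0.56 and -0.62) did not. None was lower in all 8 libraries (4.63% of genes were) or higher in all 8 (2.05%). These counts rest on the values that chose the genes.

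With TMM scaling, AGS library 1 was the library in which all 10 lay below control, with a median log2 ratio of -0.61. TSPAN14 was barely below, at 96.6% of control (log2 ratio -0.05), and its counting interval of 91.0 to 102 included the control level. CD9 in AGS library 1 moved from -0.62 with TMM to -0.56 with median-ratio scaling and -0.52 with library totals. Each rise exceeds the distance of TSPAN14 from control, so all 10 below may hold with TMM only. Over all 15338 genes the median in that library was -0.02, and 51.4% lay below control. In the other 7 libraries the median of the 10 genes ran from -0.41 in MDA-MB-231 library 1 to 0.04 in NCI-H1395 library 2, where 4 were lower and 6 higher. Their summed level in AGS was 1818 CPM in the control, 1231 CPM in library 1 and 1618 CPM in library 2. In an edgeR model over the 4 lines the ADAR siRNA pair of each line was summed. All 10 had fitted log2 differences below 0, with a median of -0.16. Over all 21944 genes tested the median was 0.06, and 42.7% were below 0. The 10 genes were chosen on the ratios behind these values, so nothing is read from the contrast. Library by library, CD81 was lower in 4 and higher in 4.

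**Figure D3:**
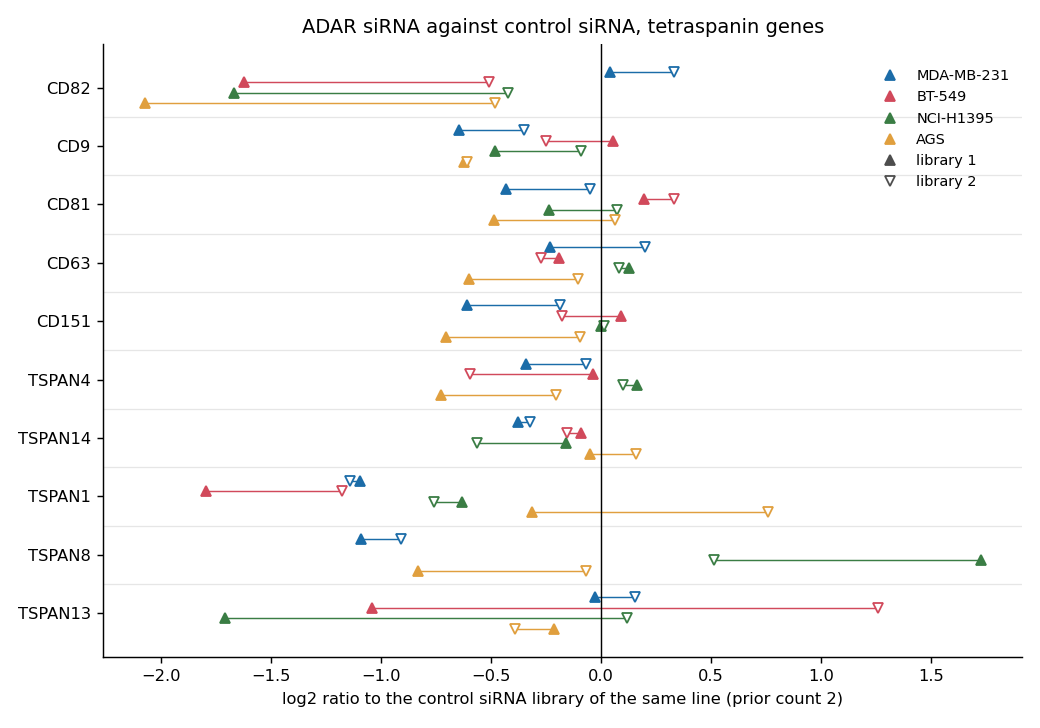
Log2 ratio of each ADAR siRNA library to the control siRNA library of its line (horizontal axis, prior count 2) for the 10 genes; colours are lines, filled triangles library 1, open triangles library 2, and thin lines join a pair. The CD82 pairs of BT-549, NCI-H1395 and AGS are wide and lie left of 0, from -2.07 to -0.42; TSPAN8 in BT-549, with 0 counts, is not drawn.

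Overexpression of NOP14 in MDA-MB-231 left the 10 genes close to the PCDH library. CD82 stood at 159 CPM against 164 CPM, which is 96.8% (95% counting interval 92.5 to 101). CD9 stood at 124 against 122 CPM, CD63 at 300 against 294 CPM, CD81 at 165 against 162 CPM and CD151 at 262 against 259 CPM. The widest ratio was that of TSPAN8, at 4.05 against 3.10 CPM, or 131% (95.6 to 179). All 10 intervals included 100%, and none of the 10 genes was 1.5-fold apart, against 2.05% of 13887 genes. With 1 library each, the difference has no replicate check.

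The PCDH library differed more from the control siRNA library of the same line. CD82 was 2.98-fold higher in PCDH (164 against 55.0 CPM) and TSPAN13 2.63-fold higher (11.5 against 4.37 CPM), the only ones of the 10 past 2-fold, where 10.3% of 14314 genes were. CD81 was 1.76-fold and TSPAN4 1.65-fold higher, and CD9 stood at 0.898 of the siRNA control. CD82 ranked behind CD63 and CD151 per length in PCDH, with 13.3% of the summed TPM of the 10 genes, against 5.78% in the control siRNA library. The CD82 gap between these controls of MDA-MB-231 was wider than any change of CD82 with ADAR siRNA or NOP14 in that line. How the 2 sets of MDA-MB-231 libraries differ beyond their labels was not tested.

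The genes most like CD82 were sought among 11653 others averaging at least 5 CPM, by the root mean square distance of their 8 log2 ratios. TGFB1, a growth factor, was nearest, at a distance of 0.36. Its log2 ratios in libraries 1 and 2 were -1.14 and -0.58 in BT-549, -1.13 and -0.17 in NCI-H1395, -1.77 and -0.02 in AGS and -0.12 and 0.01 in MDA-MB-231. BPNT1, a nucleotidase, followed at 0.38, with -2.29 in NCI-H1395 library 1. PARD6B (0.48), a polarity protein, STK17B (0.49), a kinase, and GNG12 (0.51), a G protein subunit, came next. The libraries 1 of BT-549, NCI-H1395 and AGS held the lowest ratios of all 5 genes. Pearson's r with CD82 ran from 0.86 to 0.96 over the 8 libraries, which share 4 controls. These genes were picked for nearness in the same 8 ratios. Their low points and high r therefore follow from the choice, and nothing is read from them. The nearest of the 9 other tetraspanins was TSPAN13, at 0.95 and place 792, where the median gene lay at 1.18.

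**Figure D4:**
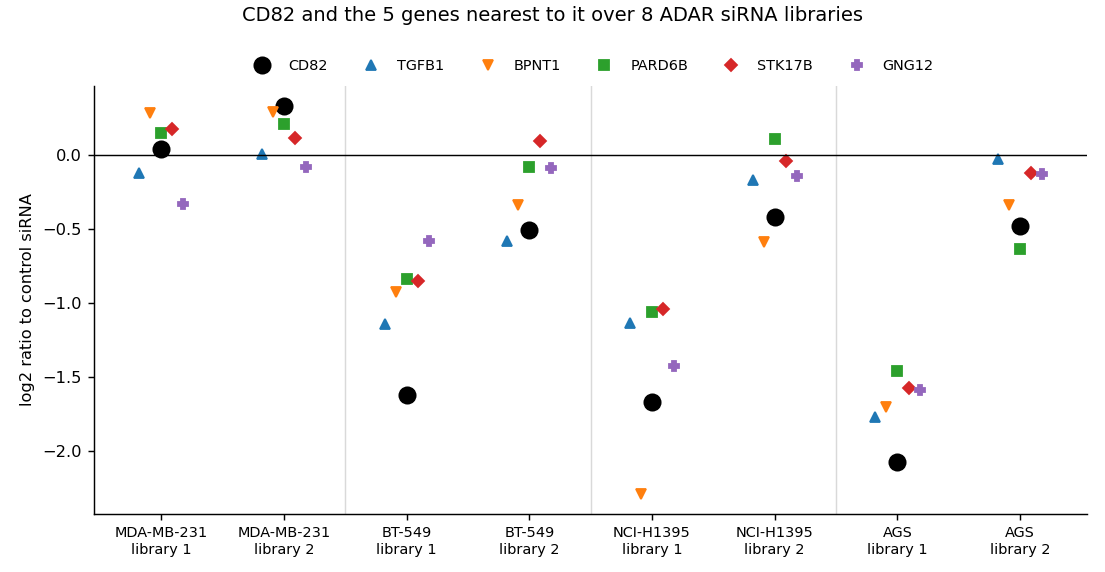
Log2 ratio to control siRNA (vertical axis) of CD82 (black circles) and the 5 genes nearest to it in the 8 ADAR siRNA libraries, set out by line and library. The low points fall in library 1 of BT-549, NCI-H1395 and AGS, down to -2.29 for BPNT1 and -2.07 for CD82. The 5 genes were picked by these same ratios.

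The remaining 23 tetraspanin genes were tested for ADAR siRNA with edgeR's quasi-likelihood test. Of these, 9 stayed under 1 CPM in every library, and TSPAN3, TSPAN5, TSPAN6 and TSPAN17 were over 10 CPM in every one, as were CD9, CD63, CD81, CD151, TSPAN4 and TSPAN14. Over the 4 lines 15 could be tested: 5 had a lower and 10 a higher fitted value, with a median log2 of 0.04 beside 0.06 for all genes. None passed an adjusted p of 0.05 in that test, where 0.0182% of all genes did, none had an unadjusted p under 0.05, and DESeq2 called none. TSPAN3 had a log2 difference of -0.22 ± 0.12 (SE; edgeR adjusted p = 0.501) and TSPAN10, a TspanC8 relative of TSPAN14, one of 0.74 ± 0.37 (adjusted p = 0.465) at no more than 4.90 CPM. Leaving out library 2 of every line brought TSPAN10 to 0.052, and leaving out library 1 to 1.12. UPK1A, a uroplakin, had 1.89 ± 0.97 (adjusted p = 0.485), at under 1 CPM in every library.

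Genes that work with tetraspanins were read from lists of 7 integrin chains, 20 other membrane partners and 20 genes of vesicle formation and release. In the edgeR fit over the 4 lines none of them was called, while 1, 4 and 3 of them had an unadjusted p under 0.05, against 11.5% of all genes. DESeq2 called 3 of them, EGFR, CLDN1 and VPS4A, and 3.22% of all genes. The integrin chains had a median log2 of 0.04, with ITGA5 of the fibronectin receptor at 0.39 ± 0.16 (SE, edgeR adjusted p = 0.363, and 0.02 without library 2) and its partner ITGB1 at 0.21 ± 0.12 (0.513). ITGA4 stood at -0.16 ± 0.25 (0.868) and was at 0 CPM in MDA-MB-231 and AGS.

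The other partners had a median of -0.10. EGFR, a receptor that CD82 and CD9 are known to associate with, had a log2 difference of -0.52 ± 0.11 (SE) and lay below control in 7 of 8 libraries, with an edgeR adjusted p of 0.131. DESeq2 called it, with an adjusted p of 0.00118 at -0.55, and over all alternatives EGFR ran from that value to 0.787 without library 2, where its difference was -0.20. EGFR stood at 654 CPM in the MDA-MB-231 control against 457 and 433 CPM, and at 642 CPM in AGS against 497 and 245 CPM. In BT-549 it stood at 351 CPM against 419 and 207 CPM, and in NCI-H1395 at 113 CPM against 96.2 and 41.8 CPM, so EGFR was lower in library 2 than in library 1 of each line, the reverse of CD82. The tight junction gene CLDN1, a partner of CD81, had 0.44 ± 0.11 (edgeR adjusted p = 0.181; DESeq2 0.00379; up to 0.855 over the alternatives, without library 2), and ADAM17, a sheddase, 0.27 ± 0.11 (0.342). Both were higher in 7 of 8 libraries.

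Of the vesicle genes 19 were tested, with a median of -0.03. VPS4A, the ATPase that takes ESCRT filaments apart, had -0.39 ± 0.12 (SE; edgeR adjusted p = 0.243; DESeq2 0.0292; up to 0.573 over the alternatives, without AGS), and RAB27B, a GTPase of vesicle docking, -0.36 ± 0.13 (0.312); both lay below control in all 8 libraries. SDC1, a syndecan, had -0.45 ± 0.15 (0.265). Without library 2 its value was -0.90, past the threshold with an edgeR adjusted p of 0.0228, and without library 1 it was -0.17 (0.754). Of transcription factors reported at the CD82 promoter, TFAP2A had -0.18 ± 0.14 (SE; edgeR adjusted p = 0.663) and JUNB 0.30 ± 0.27 (0.742).

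Line by line, edgeR called no gene of these lists or of the other tetraspanins. Its calls over all 23959 genes were few, at 0.0751% in MDA-MB-231 and 0.00417% in each of BT-549, NCI-H1395 and AGS. At an unadjusted p under 0.05 stood 4.98% of all genes in AGS, 5.30% for NCI-H1395, 3.10% for BT-549 and 4.85% for MDA-MB-231. The other partners at that p numbered 3 of 20 in MDA-MB-231 and 1 of 20 in each other line, and DESeq2 called 1 of them, PTGFRN, higher in MDA-MB-231, where it called 0.221% of all genes. The vesicle genes numbered 2, 1, 1 and 2 of 19 in MDA-MB-231, BT-549, NCI-H1395 and AGS. Among the integrin chains 1 of 7 did so, in NCI-H1395, and among the other tetraspanins 1 of 15 in MDA-MB-231.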

How the data were processed

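The deposited table gives read counts per gene, summed over exons by the authors with featureCounts 2.0.6 after fastp 0.23.4 and STAR 2.7.11a on hg38, per the submitters' processing notes. Per the labels' protocols, libraries were made from poly(A) RNA. Of 62702 lines, 3 were broken and were not used. Counts were tested with edgeR 4.0.16 in R 4.3.3 (robust quasi-likelihood, filterByExpr, TMM, Benjamini-Hochberg threshold 0.05): within lines as 8 groups of the 12 siRNA libraries (4 residual degrees of freedom), and over lines with the ADAR siRNA pair summed (3). DESeq2 1.42.0, other scalings, no count filter, a replicate block and left-out libraries or lines were alternatives. Levels are TMM-scaled CPM, and log2 ratios use a prior count of 2. Counting intervals are exact binomial, at 95%.

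The members and gene lists were chosen with earlier results of these data known. Named genes are all members, the 3 with the smallest p over the lines from each list, and the 5 nearest to CD82. 1 named gene is not reported here. On simulated counts for AGS (21924 genes) the within-line test recovered 17% of genes set 2-fold apart and 67% of those 4-fold apart. Over the 4 lines (21089 genes) the shares were 65% and 96%. Genes left unchanged in the simulation but called numbered 9 for AGS and 12 over the 4 lines. Paired ADAR siRNA libraries differed by more than sampling noise in every line.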

Additional observations from a re-analysis of the deposited data

Results flagged for a closer look

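CD63, CD81, CD82, TSPAN4 and TSPAN8 had both ADAR siRNA libraries above control in 1 line and both below it in another, and none of these differences was tested. For CD82 the mean log2 ratios of MDA-MB-231 (0.19) and AGS (-1.28) differed by 1.46. For TSPAN8 those of NCI-H1395 (1.12, from 4 control counts) and MDA-MB-231 (-0.999) differed by 2.12. TSPAN4 differed by 0.60 between NCI-H1395 (0.13) and AGS (-0.47). CD81 differed by 0.51 between BT-549 (0.27) and MDA-MB-231 (-0.24), and CD63 by 0.46 between NCI-H1395 (0.11) and AGS (-0.35).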

How the results depend on the processing

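The counts of genes called with ADAR siRNA were 18 in MDA-MB-231, 1 in each of BT-549, NCI-H1395 and AGS, and 4 over the lines. Without a count filter they were 107, 27, 72, 33 and 394, and with DESeq2 53, 3, 47, 14 and 707. Median-ratio scaling gave 2 in AGS. With the replicate block they were 187, 42, 149, 65 and 2; differences between libraries 2 and 1 correlated over genes at r = 0.34 (BT-549 and NCI-H1395), 0.18 (NCI-H1395 and AGS) and 0.16 (BT-549 and AGS), but at -0.07 to 0.02 with MDA-MB-231, and the labels do not say what a number shares. Leaving out an ADAR siRNA replicate gave 2 to 4 in MDA-MB-231, 1 to 32 in BT-549, 38 to 39 in NCI-H1395, 1 to 8 in AGS and 0 (without library 1; 2765 at an unadjusted p under 0.05) to 14 over the lines. Over the lines, 75 were called without MDA-MB-231, 0 without BT-549 or NCI-H1395 (2033 and 1608 at an unadjusted p under 0.05 in edgeR) and 1 with libraries unsummed. The cause was not tested. Without a count filter EGFR, CLDN1 and ITGA5 also passed in edgeR (adjusted p = 0.0204, 0.0296 and 0.0364). ITGA4 turned to 0.071 without NCI-H1395. For CD82 the single libraries spanned 0.04 to 0.33 in MDA-MB-231, -1.62 to -0.51 in BT-549, -1.67 to -0.42 in NCI-H1395 and -2.07 to -0.48 in AGS. Other scalings or prior counts changed the sign of 3 of 120 mean ratios, of CD63 in MDA-MB-231 and CD81 in NCI-H1395.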
